A study of Mus musculus with 15 samples.

Results

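Gene expression in the whole hippocampus was compared between sedentary SAMP8 and sedentary SAMR1 mice, on the 10 arrays of the 15 in the series whose titles name these groups, 5 from each line. SAMP8 is an inbred senescence-accelerated mouse line known for early deficits of learning and memory, and SAMR1 is the senescence-resistant line used as its counterpart. All mice were adult females, none of these 10 samples came from exercised animals, and the remaining 5 arrays hold exercised SAMP8. Ages are not given in the labels, nor whether each array is 1 animal or a pool. The p-values therefore refer only to the variation among these arrays. The lines are inbred stocks, so any difference between them is a difference of whole genomes and colonies and not of a single allele. The titles name the arrays of each line biological replicates 1 to 5, and the arrays with the same number are treated here as a pair.

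The hippocampus is a folded sheet of cortex that forms memories of places and events. Its pyramidal neurons and granule cells lie among astrocytes, oligodendrocytes, microglia and small vessels, and the fibroblast-rich meninges and the choroid plexus, which secretes cerebrospinal fluid, adhere to its surface. A dissected hippocampus can therefore carry RNA of these surface tissues along with that of its own cells.

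Each level below is a log2 intensity of a 1-colour array, each difference is sedentary SAMP8 minus SAMR1 on that log2 scale, and the error after a difference is the standard error of the paired fit. A gene is called when its p-value, adjusted over all 16401 named genes measured, is under 0.05. Median intensities ran from 207.75 to 208.667, and each array had 3.664% to 4.201% of its gene values at the lower limit set for faint signals, 5.29 on the log2 scale. Genes of hippocampal neurons gave signals far above that limit in both lines, such as the pyramidal cell gene Pou3f1 (mean 14.37 in SAMP8 and 14.76 in SAMR1). On 1 array another tissue stood out: 9 genes typical of the neighbouring striatum averaged 8.22, 8.03, 8.05, 8.13 and 8.25 in SAMP8 replicates 1 to 5, against 8.12, 7.95, 7.96, 8.02 and 9.76 in SAMR1 replicates 1 to 5. SAMR1 replicate 5 thus lay above the other 9 arrays for these genes, and the calls of named genes that ended without pair 5 are given beside them. Where a call ended when a pair was left out, the pairs that did so are named, with the highest adjusted p. Such a fit has fewer arrays and 1 residual degree of freedom less, so a call can end in it without a smaller difference.

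Between the lines, 648 of the 16401 genes (3.95%) differed, 362 higher (2.21%) and 286 lower (1.74%) in SAMP8. The median size of the called differences was 0.58 on the log2 scale, against 0.098 over all genes, and 94 of them reached 2-fold, 52 higher and 42 lower. All 5 pairs differed in 1 direction in 647 of the 648 genes, against 17.1% of all genes, and in 441 of them all 5 arrays of one line lay above all 5 of the other, against 4.19% of all genes. The paired fit calls genes by the agreement of their pairs, so these shares follow in part from the calling. Called genes were spread over the whole range of levels, while the median difference over all genes was 0.0029. Without pair 5, 348 genes were called, of which 335 were among the 648. Leaving out pair 1, 2, 3 or 4 gave 346, 404, 344 and 443 genes.

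**Figure D1:**
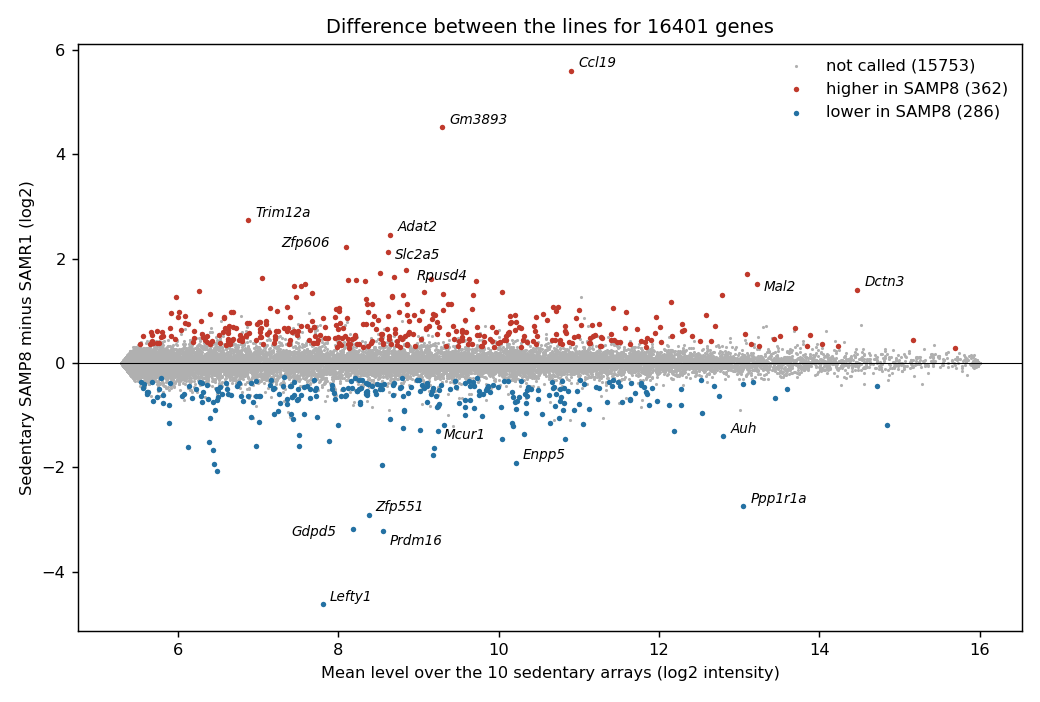
Difference between sedentary SAMP8 and SAMR1 (vertical axis, log2) against the mean level over the 10 sedentary arrays (horizontal axis, log2 intensity), 1 point per gene. Red points are the 362 genes called higher and blue points the 286 called lower in SAMP8, and some of those with large differences are named, from Ccl19 at the top to Lefty1 at the bottom.

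The largest differences had a nearly all-or-none appearance, with a strong signal in one line and a faint one in the other. Ccl19, a chemokine that guides T cells and dendritic cells through the receptor Ccr7, measured 13.74, 13.59, 13.63, 13.78 and 13.78 in SAMP8 replicates 1 to 5, against 7.75, 7.39, 9.09, 8.68 and 7.57 in SAMR1 replicates 1 to 5. The SAMP8 arrays lay within a narrow band, and SAMR1 replicates 3 and 4 were the brightest of the SAMR1 arrays (48.7-fold, 5.61 ± 0.25, adjusted p = 3.47e-05). Lefty1, a secreted inhibitor of Nodal signalling, measured 5.29, 5.61, 5.30, 5.55 and 5.70 in SAMP8, against 10.20, 9.72, 9.81, 10.18 and 10.64 in SAMR1. All SAMP8 arrays were thus at or close to the lower limit of 5.29, and 1 of them was at it (-4.62 ± 0.12, adjusted p = 4.29e-06). The fitted fold was 24.6-fold with this limit and 25.5-fold without it. Trim12a, a tripartite motif protein of the family that includes restriction factors of retroviruses, had the opposite pattern, with 8.17, 8.15, 8.497, 8.28 and 8.15 in SAMP8 and 5.88, 5.34, 5.31, 5.29 and 5.72 in SAMR1, where 1 array was at the limit (2.74 ± 0.13, adjusted p = 5.6e-05). The predicted gene Gm3893 measured 11.83, 11.26, 11.63, 11.30 and 11.74 in SAMP8, against 6.88, 7.09, 7.17, 6.56 and 7.46 in SAMR1, a difference of 22.9-fold without overlap (4.52 ± 0.12, adjusted p = 4.29e-06). Whether the probes of Ccl19, Gm3893 and Trim12a also read close paralogs was not tested.

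Several transcription and signalling genes were lower in SAMP8 by more than 6-fold. Prdm16, a zinc finger regulator of brown fat and neural stem cells, measured 7.40, 7.23, 6.86, 6.51 and 6.73 in SAMP8, against 10.27, 9.88, 10.37, 10.02 and 10.25 in SAMR1 (9.27-fold, -3.21 ± 0.15, adjusted p = 3.87e-05). Gdpd5, an enzyme that cleaves lipid anchors from surface proteins, measured 6.57, 6.40, 6.55, 6.84 and 6.56 in SAMP8 and 9.80, 9.86, 9.66, 9.54 and 10.01 in SAMR1 (9.1-fold, -3.19 ± 0.12). The zinc finger gene Zfp551 was 7.51-fold lower, with 6.98, 7.27, 7.06, 6.31 and 6.99 in SAMP8 and 9.83, 9.95, 9.93, 9.52 and 9.92 in SAMR1 (-2.91 ± 0.08). None of these groups overlapped between the lines. Ppp1r1a, inhibitor 1 of protein phosphatase 1, which protein kinase A switches on, measured 11.80, 11.70, 12.07, 11.07 and 11.76 in SAMP8, against 14.55, 14.32, 14.40, 14.10 and 14.75 in SAMR1 (6.7-fold, -2.74 ± 0.11). Adat2, the catalytic subunit of the enzyme that edits the wobble base of transfer RNAs, was instead higher, with 9.59, 9.89, 9.90, 10.05 and 9.97 in SAMP8 and 7.39, 7.26, 7.59, 7.60 and 7.26 in SAMR1 (5.5-fold, 2.46 ± 0.09). Leaving Adat2 aside, these are the 8 genes with the largest differences. Their adjusted p-values ran from 4.29e-06 for Lefty1 and Gm3893 to 5.6e-05 for Trim12a, and their calls held when any 1 pair was left out.

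**Figure D2:**
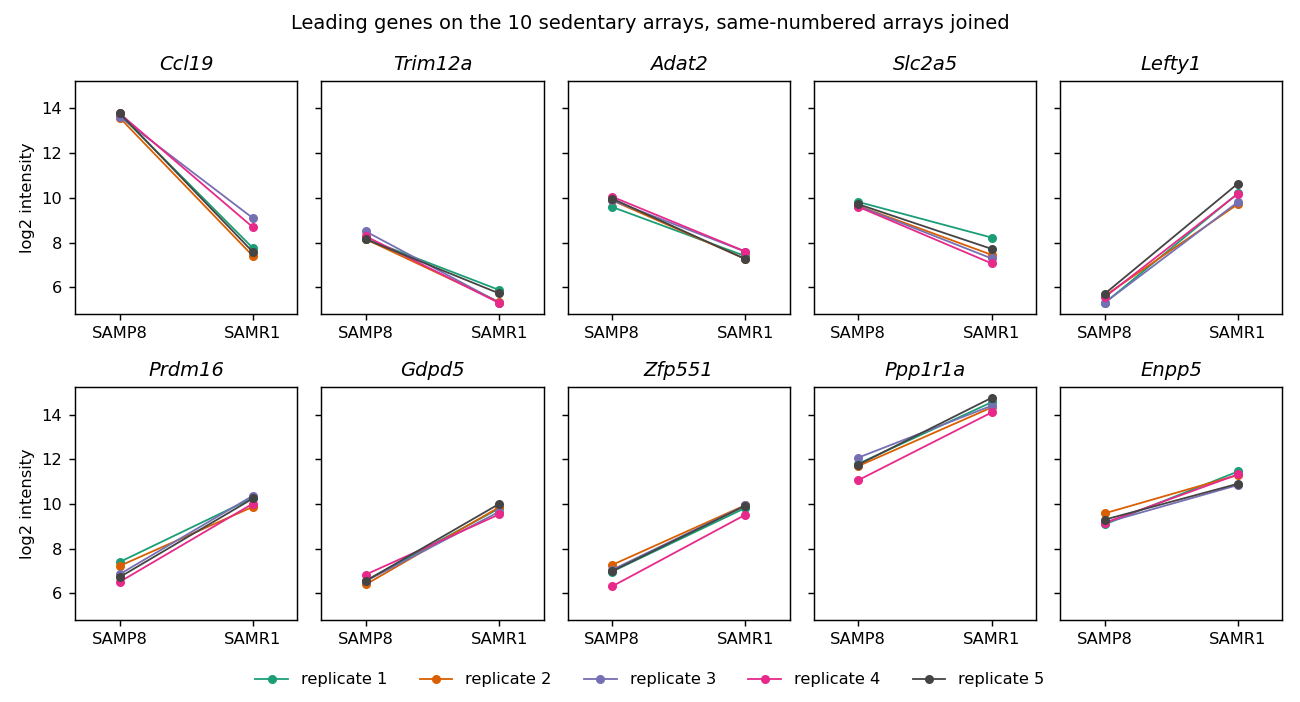
Level of 10 genes with large differences on each sedentary array (vertical axis, log2 intensity), SAMP8 on the left and SAMR1 on the right of each panel, with lines joining same-numbered arrays. The groups do not overlap in any of the 10 genes, and in Ccl19 the SAMP8 arrays lie close together while the SAMR1 arrays spread from 7.39 to 9.09.

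Exercised SAMP8 arrays, which are compared with the same SAMR1 arrays only as values side by side, measured 13.51 to 13.96 for Ccl19, 5.29 to 5.84 for Lefty1 and 11.54 to 12.01 for Ppp1r1a. For Adat2 they measured 9.84 to 10.04, for Prdm16 6.69 to 7.15 and for Trim12a 7.86 to 8.25. Each of these ranges overlapped that of the sedentary SAMP8 arrays and none reached that of the SAMR1 arrays.

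Among the genes with a mean above that of the median gene, the largest increases included a histone gene, a protein kinase and secreted factors. H4c9, a histone H4 gene, was 2.19-fold higher (1.13 ± 0.07), the protein kinase Uhmk1 2.57-fold (1.36 ± 0.09), and Rpp25l, a relative of a ribonuclease P subunit, 2.25-fold (1.17 ± 0.11). Bmp7, a bone morphogenetic protein that the meninges secrete, measured 9.63, 10.08, 10.61, 9.96 and 9.58 in SAMP8, against 8.77, 8.73, 9.30, 9.07 and 8.32 in SAMR1 (2.2-fold, 1.14 ± 0.10). Serpinf1, a secreted factor with neurotrophic and antiangiogenic activity, measured 11.31, 11.15, 11.49, 11.12 and 11.32 in SAMP8, against 10.19, 9.85, 10.42, 10.32 and 10.22 in SAMR1 (2.11-fold, 1.08 ± 0.08). In both genes every SAMP8 array lay above every SAMR1 array, which the rule for naming these largest increases required. The lens filament gene Bfsp2 was 2.19-fold higher (1.13 ± 0.16).

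Lower at these levels were the transcription factor Usf1 (3.09-fold, -1.63 ± 0.08), the membrane glycoprotein Emb (2.56-fold, -1.36 ± 0.08) and Mpeg1, a pore-forming protein of macrophages and microglia, which measured 8.61, 8.45, 8.65, 8.65 and 8.57 in SAMP8 and 10.11, 9.61, 9.83, 9.73 and 10.16 in SAMR1 (2.47-fold, -1.30 ± 0.09). Erdr1, which lies at the end of the X chromosome, measured 14.20, 14.04, 14.53, 14.16 and 14.35 in SAMP8, against 15.16, 15.73, 15.53, 14.83 and 15.93 in SAMR1 (2.26-fold, -1.18 ± 0.15). Uap1l1 (-1.19 ± 0.11) and the membrane-binding protein Plekha5 (-1.16 ± 0.14) each rest on the brightest probe. The call of Bfsp2 ended when pair 1 was left out (adjusted p = 0.0528). With all probes of a gene averaged the call ended for Uap1l1 (-0.42, adjusted p = 0.0677) and Plekha5 (-0.23, adjusted p = 0.287). With all probes averaged the difference was 0.74 for Bmp7 and -0.84 for Emb. Of the 287 called genes with several probes, all probes pointed the same way in 196, against 3628 of 6970 among all genes with several probes.

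Same-numbered arrays of the lines deviated together from their group means. The correlation over all genes was 0.27, 0.23, 0.38, 0.52 and 0.42 in pairs 1 to 5, against -0.36 to 0.13 for arrays of different numbers, and every array correlated best with the array of its own number. Deviations from a group mean cancel out within a line. The lower values for different numbers are therefore partly built in and are not an independent baseline. The labels do not say what the numbers stand for. Taking the number into account lowered the median standard error to 0.0847, against 0.110 without it, and raised the number of called genes to 648, against 437 (2.66%) without it, 240 higher (1.46%) and 197 lower (1.2%). Both fits called 409 genes, 239 were called with the number alone and 28 without it alone.

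**Figure D3:**
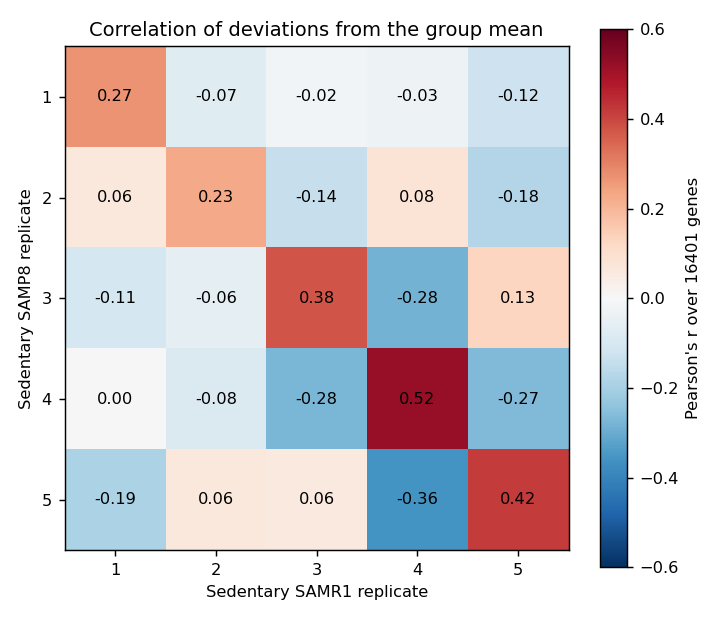
Pearson correlation, over 16401 genes, of each sedentary SAMP8 array's deviation from its group mean (rows) with that of each SAMR1 array (columns). The same-numbered arrays on the diagonal correlate from 0.23 to 0.52, and the other combinations from -0.36 to 0.13, where low values are partly built in because deviations cancel out within a line.

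The genes that gained most from the pairing varied widely between arrays of one line while their pairs differed by nearly the same amount. Slc47a1, an exporter of organic cations, measured 7.16, 7.45, 8.65, 8.10 and 7.34 in SAMP8, against 6.13, 6.48, 7.34, 7.10 and 6.62 in SAMR1. Replicates 3 and 4 were the brightest of each line, the lines overlapped, and the 5 pair differences were 1.03, 0.98, 1.31, 1.00 and 0.72 (1.01 ± 0.09, adjusted p = 0.000918 with the number and 0.137 without it). Thbd, the anticoagulant receptor thrombomodulin, measured 8.45, 8.78, 9.50, 9.30 and 8.44 in SAMP8, against 7.52, 7.87, 8.48, 8.26 and 7.87 in SAMR1, with the same 2 replicates on top (0.89 ± 0.08, adjusted p = 0.00118 and 0.0837). Foxd1, a forkhead factor of meningeal and stromal cells, measured 7.27, 7.27, 7.87, 7.70 and 6.98 in SAMP8, against 6.36, 6.36, 7.07, 6.97 and 6.38 in SAMR1 (0.79 ± 0.07, adjusted p = 0.00105 and 0.0673). Akr1b8, an aldo-keto reductase, was lower in each pair, with 8.43, 8.68, 8.20, 8.98 and 8.21 in SAMP8 and 9.10, 9.28, 8.95, 9.56 and 8.72 in SAMR1 (-0.62 ± 0.06, adjusted p = 0.00195 and 0.129). The orphan receptor Gpr83 followed another pair, number 5, which was the brightest in both lines (12.48 in SAMP8 and 12.04 in SAMR1), and was higher by 0.65 ± 0.08 (adjusted p = 0.00379 and 0.117). The proline transporter Slc6a20a (1.31 ± 0.15, 0.00315 and 0.0829), the collagen receptor Itga11 (0.66 ± 0.08, 0.00465 and 0.0604) and the antiviral synthetase gene Oas1f (0.67 ± 0.06, 0.00142 and 0.142) complete the 8 genes of this kind with the lowest p-values. All 8 kept their calls when any 1 pair was left out. In a fit without the replicate number and with the means of the meningeal and choroid plexus markers as covariates, chosen after the data were seen, none of the 8 was called. There the sign turned for Slc47a1 (-0.29), Thbd (-0.088) and Slc6a20a (-0.16). The differences of Foxd1 (0.012), Itga11 (0.022) and Oas1f (0.0023) were close to 0 in it, and those of Akr1b8 (-0.71) and Gpr83 (0.75) were not. Foxd1 is itself one of the meningeal markers averaged, so its smaller difference there is partly built in.

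Meningeal and fibroblast genes were higher in SAMP8. Of 18 markers measured, 13 rose, none fell and 5 did not pass (72.2% called, against 3.95% of all genes), and their median difference was 0.75. Without the replicate number 4 of them rose, and without pair 5 it was 9. The list averaged 9.64, 9.68, 10.15, 9.74 and 9.31 in SAMP8 replicates 1 to 5, against 8.72, 8.76, 9.47, 9.38 and 8.49 in SAMR1 replicates 1 to 5, so that the lines overlapped while SAMP8 was above SAMR1 in every pair. Fewer cells of a type and less RNA per cell cannot be told apart in such whole-tissue samples. Col1a1, a chain of fibrillar type I collagen, measured 9.61, 9.66, 10.14, 9.81 and 9.49 in SAMP8, against 7.84, 7.95, 8.998, 8.96 and 8.19 in SAMR1, without overlap (2.56-fold, 1.35 ± 0.14, adjusted p = 0.00185). The fibrillar collagen Col3a1 (1.35 ± 0.13, adjusted p = 0.00116), the retinoic acid-forming enzyme Aldh1a2 (1.57 ± 0.22, adjusted p = 0.0073), the forkhead factor Foxc1 (0.65 ± 0.08, adjusted p = 0.00459) and the matrix protein Mgp (0.89 ± 0.11, adjusted p = 0.00535) also rose. The organic anion transporter Slc22a6 rose by 1.23 ± 0.18, adjusted p = 0.0092. With all probes averaged the difference was 0.78 for Col3a1 and 0.74 for Slc22a6. The call of Slc22a6 ended when pair 1 was left out (adjusted p = 0.0517). In the unpaired fit the call ended for Aldh1a2 (0.0838), Mgp (0.187) and Slc22a6 (0.164). In the exercised SAMP8 arrays the list averaged 9.13, 9.27, 9.03, 9.01 and 9.85.

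Vessel wall genes rose with them, and choroid plexus genes lay lower. Among 16 markers of pericytes and smooth muscle 6 rose and none fell (37.5%, against 3.95% of all genes), with a median of 0.29. The count was 5 without the replicate number and 3 without pair 5. Pdgfrb, the receptor through which pericytes are recruited to vessels, measured 10.06, 9.72, 10.05, 10.21 and 9.91 in SAMP8, against 8.98, 9.02, 9.30, 9.12 and 9.44 in SAMR1, without overlap (1.77-fold, 0.82 ± 0.10, adjusted p = 0.00499). The aminopeptidase Anpep (0.67 ± 0.06, adjusted p = 0.00101), the pericyte-secreted adhesion protein Vtn (0.88 ± 0.13, adjusted p = 0.00924) and the contractile genes Cnn1 (1.48 ± 0.22, adjusted p = 0.0103) and Myh11 (0.99 ± 0.17, adjusted p = 0.0219) rose as well. Of 19 endothelial markers (15.8% called), the drug efflux pump Abcb1a rose by 1.28 ± 0.07 with the lower limit, where 4 of 5 SAMR1 arrays lay, and by 1.39 ± 0.09 without it, Vwf rose by 0.80 ± 0.12, and the thyroid hormone transporter Slco1c1 fell by 0.66 on the log2 scale (adjusted p = 0.0053). Of 17 choroid plexus and ependyma genes (5.88% called), the water channel Aqp1 alone passed (-1.50 ± 0.27, adjusted p = 0.0252), while 14 of the 17 had a difference below 0 and the median was -0.60. Their mean was 9.66, 9.10, 8.62, 8.11 and 7.81 in SAMP8, against 9.79, 9.31, 9.15, 9.43 and 8.56 in SAMR1, lower in every SAMP8 array than in its pair, with overlap of the lines. Leaving out single pairs ended the calls of Cnn1 (without pair 5, adjusted p = 0.054), Myh11 (without pair 2, 4 or 5, up to 0.0779), Vwf (without pair 2 or 4, up to 0.054) and Aqp1 (without pair 1, 3 or 5, up to 0.0914). With arrays unpaired, the call ended for Cnn1 (0.0568), Myh11 (0.106), Vwf (0.111) and Aqp1 (0.249).

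**Figure D4:**
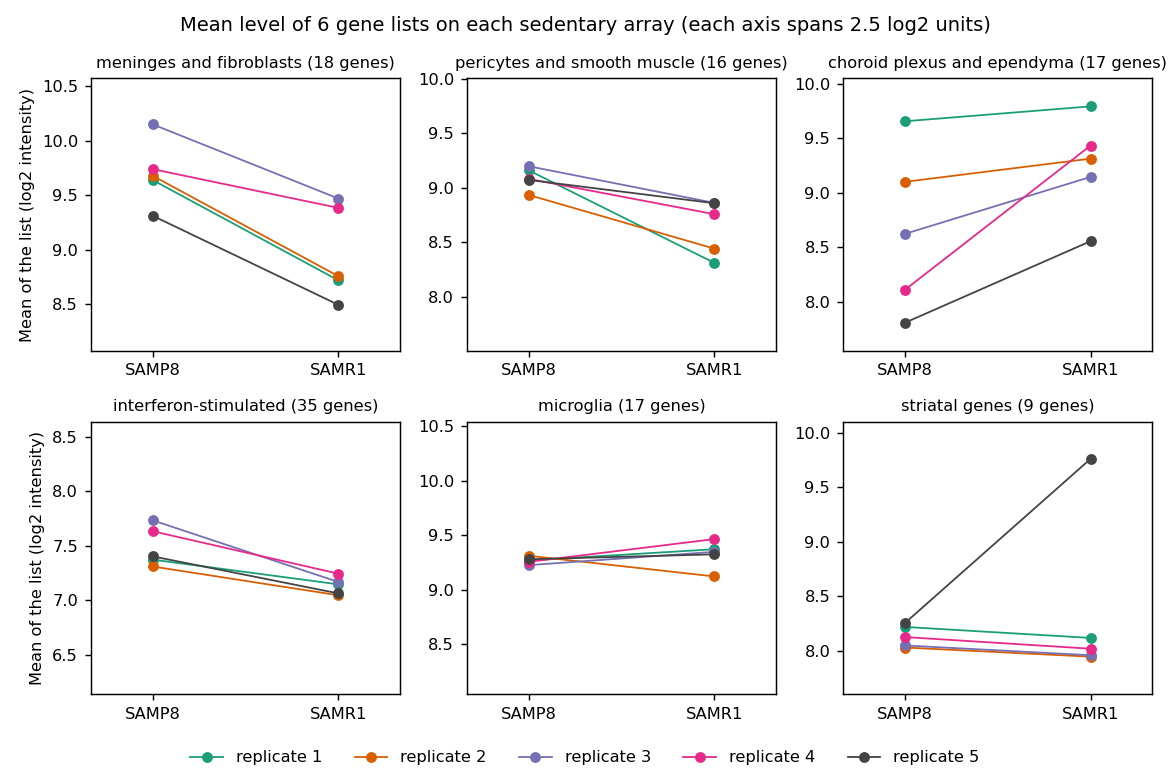
Mean level of 6 gene lists on each sedentary array (vertical axis, log2 intensity, spanning 2.5 units in each panel), SAMP8 on the left and SAMR1 on the right, with lines joining same-numbered arrays. The meningeal, vessel wall and interferon-stimulated lists lie higher and the choroid plexus list lower in SAMP8 in every pair, the microglial list is lower in SAMP8 in 4 of 5 pairs, and SAMR1 replicate 5 stands apart in the striatal list.

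The levels of these surface tissue lists moved with the lines. The fit with their means as covariates called 93 genes, 39 higher and 54 lower. Its median standard error was 0.178, against 0.0847 in the paired fit and 0.110 in the unpaired fit. A call could therefore end in it without a smaller difference. Of the 132 called genes named here it kept 35, while 85 lost their calls and 12 changed sign. None of the pericyte and smooth muscle, interferon-stimulated or collagen genes was called in it. The median difference was 0.15 for the pericyte and smooth muscle list. The endothelial gene Abcb1a kept its call (1.21, adjusted p = 0.00295). Col1a1 and Col3a1 are among the meningeal markers averaged, so they were adjusted for a mean that contains them. The sign turned for Myh11 (-0.013) and Vwf (-0.014), and also for Gjb2 (-0.34), Serping1 (-0.13) and Ccl12 (-0.21). Adat2 and the 8 genes with the largest differences kept their calls in it, with 4.70 for Ccl19, -4.46 for Lefty1, -2.54 for Ppp1r1a and 2.14 for Adat2.

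Of the glial cells, astrocytes and the oligodendrocyte lineage had genes that moved in both directions, and microglial identity genes had none that passed. Among 17 astrocyte markers 3 rose and 1 fell (23.5%, against 3.95% of all genes, median 0.02). Ntsr2, a neurotensin receptor of astrocytes, measured 12.37, 12.40, 12.60, 12.34 and 12.46 in SAMP8, against 12.99, 13.06, 13.12, 12.88 and 13.27 in SAMR1, without overlap (1.54-fold, -0.63 ± 0.07, adjusted p = 0.00267). The reactive astrocyte protease inhibitor Serpina3n rose by 0.70 ± 0.11, adjusted p = 0.0141, the gap junction gene Gjb2, which meningeal cells also express, by 0.98 ± 0.18, adjusted p = 0.0273 and Aldoc, a glycolytic enzyme, by 0.29 ± 0.06, adjusted p = 0.0462. Gfap, the intermediate filament that marks reactive astrocytes, differed by 0.24 ± 0.09, adjusted p = 0.209 and was not called. Of 16 oligodendrocyte genes (25% called), the lineage factor Olig1 rose (0.48 ± 0.09), and the myelin glycoprotein Mog (-0.54 ± 0.10), Opalin (-0.45 ± 0.10) and the aspartoacylase Aspa (-0.55 ± 0.11) fell. Of 9 genes of their precursors and newly formed cells (22.2% called), the receptor Gpr17 (0.75 ± 0.12, adjusted p = 0.016) and Bmp4 (0.57 ± 0.07, adjusted p = 0.00465), which is made by newly formed oligodendrocytes, rose. The calls ended when 1 pair was left out for Serpina3n (without pair 1 or 3, up to 0.0648), Gjb2 (without pair 1, 2, 3 or 5, up to 0.113), Aldoc (without any 1 pair, up to 0.137), Olig1 (without pair 1, 2, 3 or 4, up to 0.111), Mog (without pair 1, 2, 3 or 4, up to 0.099), Opalin (without any 1 pair, up to 0.148), Aspa (without any 1 pair, up to 0.135) and Gpr17 (without pair 1, 2 or 5, up to 0.0781). With the replicate number left out, the call ended for Gjb2 (0.19), Mog (0.0849) and Opalin (0.166), and with all probes of a gene averaged for Gjb2 (0.43, adjusted p = 0.126), Aldoc (0.14, adjusted p = 0.275), Mog (-0.37, adjusted p = 0.0545), Opalin (-0.37, adjusted p = 0.0553) and Gpr17 (0.15, adjusted p = 0.499).

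None of 17 microglial identity genes passed (limma, 4 at an unadjusted p under 0.05, none without the replicate number), and their means of 9.27, 9.31, 9.22, 9.25 and 9.28 in SAMP8 lay within the range of 9.37, 9.12, 9.35, 9.46 and 9.32 in SAMR1. Aif1, a calcium-binding protein of microglia, had the lowest p-value among them (0.20 ± 0.07, adjusted p = 0.186). Of the 17 microglial genes 6 had a difference above 0 and 11 below 0, with a median of -0.08. The identity genes of hippocampal neurons did not pass either, with 0 of 5 for CA1 (1 at an unadjusted p under 0.05), 0 of 9 for CA2 and CA3 (3) and 0 of 10 for dentate granule cells (2), and none passed without the replicate number. Among 15 interneuron genes (6.67% called) Calb2, the calcium-binding protein calretinin, measured 10.40, 9.60, 10.20, 10.02 and 10.15 in SAMP8, against 9.26, 9.27, 9.36, 9.46 and 9.55 in SAMR1 (1.62-fold, 0.69 ± 0.11, adjusted p = 0.0165). Calb2 is also made by thalamic neurons and by immature granule cells. In 11 thalamic genes (18.2% called, against 3.95% of all genes) it was joined by the Wnt-pathway factor Lef1 (0.48 ± 0.08, adjusted p = 0.0147). The median of the thalamic list was 0.25. Without pair 5 none was called, while the median was 0.36 and all 11 lay above 0. The list averaged 9.32, 9.39, 9.23, 9.61 and 8.855 in SAMP8, against 8.96, 8.89, 9.02, 8.925 and 9.12 in SAMR1. It was thus higher in SAMP8 in pairs 1 to 4 and lower in pair 5. Leaving out 1 pair ended the calls of Calb2 (without pair 3, 4 or 5, up to 0.0759) and Lef1 (without pair 3 or 5, up to 0.0604). In the fit without pairs the call ended for Lef1 (0.0673).

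**Figure D5:**
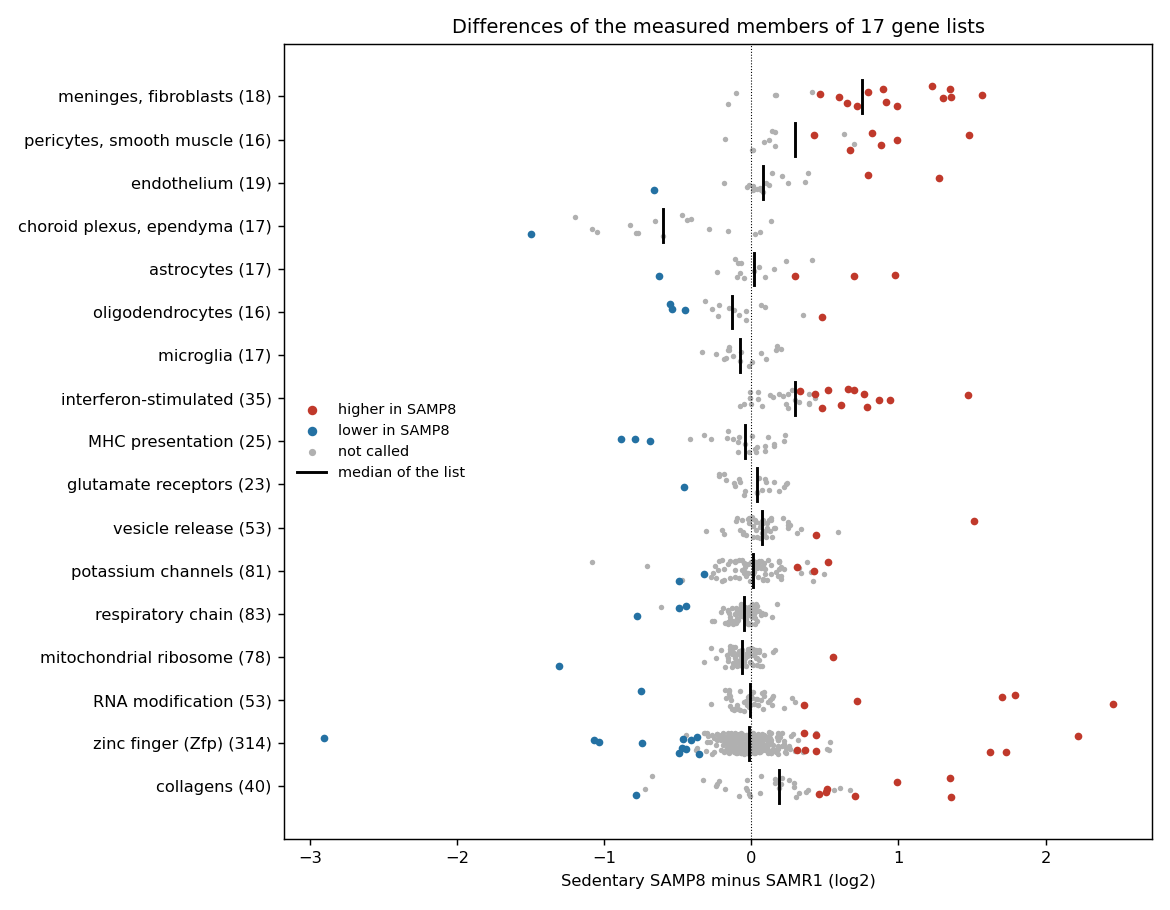
Differences between sedentary SAMP8 and SAMR1 (horizontal axis, log2) of the measured members of 17 gene lists, with the number of members in parentheses. Red and blue points are members called higher and lower in SAMP8, grey points are not called, and the black bar is the median of the list, which is 0.75 for the meningeal and -0.60 for the choroid plexus list.

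Interferons are antiviral cytokines that switch on a common set of genes, many of which carry a repeated GAAA motif in their promoters. Of 35 such genes measured, 12 rose in SAMP8 and none fell (34.3%, against 3.95% of all genes), 29 of the 35 had a difference above 0, and the median was 0.30. Without the replicate number 7 rose, and without pair 5 it was 6. With the surface tissue covariates none of the 35 was called and the median was 0.06, with Ifit1 at -0.056 and Isg15 at 0.056. Promoter stretches are shown for the members that rose and hold the motif. The motif, the letters GAAA followed by 2 bases of any kind and GAAA again, was searched on both strands of the 250 bases before the start of transcription in RefSeq promoters of GRCm38.p6. It was found in 9 of 24 matched members (37.5%), among them 3 of the 7 matched members that rose and 6 of the 17 that did not pass, against 437 of 13127 matched genes of the whole array (3.33%). The 100 bases around the matches of the 3 that rose follow, 5′ to 3′ on the strand of the gene, with the matched letters in capitals, at chr19:34640740-34640839 on the plus strand for Ifit1, chr4:156200842-156200941 on the minus strand for Isg15 and chr5:120907526-120907625 on the minus strand for Oas1a.
Ifit1: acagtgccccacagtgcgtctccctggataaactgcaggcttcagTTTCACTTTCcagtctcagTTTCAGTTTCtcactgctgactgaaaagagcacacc
Isg15: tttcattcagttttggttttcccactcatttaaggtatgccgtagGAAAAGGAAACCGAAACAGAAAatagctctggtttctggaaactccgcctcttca
Oas1a: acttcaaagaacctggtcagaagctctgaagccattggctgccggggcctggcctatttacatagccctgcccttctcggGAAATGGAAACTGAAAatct
Ifit1 carries its matches as the reverse complement, and in Isg15 and Oas1a neighbouring matches overlap. A match describes these letters only and is not evidence of binding here.

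The members that rose did so by 0.33 to 1.48 on the log2 scale. Ifi27l2a, a small mitochondrial and nuclear envelope protein, measured 8.17, 7.74, 9.37, 8.25 and 7.82 in SAMP8, against 7.08, 6.43, 6.94, 7.04 and 6.47 in SAMR1, without overlap (2.78-fold, 1.48 ± 0.18, adjusted p = 0.00465). Eif2ak2, the kinase PKR that stops translation when it meets double-stranded RNA, measured 7.53, 7.17, 7.30, 6.95 and 7.25 in SAMP8, against 6.58, 6.58, 6.54, 6.54 and 6.13 in SAMR1, also without overlap (1.7-fold, 0.77 ± 0.11, adjusted p = 0.00812). Ifit1, which binds foreign capped RNA, measured 6.44, 6.48, 7.94, 7.41 and 6.75 in SAMP8, against 5.92, 6.21, 6.29, 6.34 and 5.89 in SAMR1, where replicate 4 was the brightest (0.87 ± 0.18, adjusted p = 0.0409). The ubiquitin-like modifier Isg15 (0.43 ± 0.09, adjusted p = 0.0338), its removing protease Usp18 (0.94 ± 0.15, adjusted p = 0.0123), the RNA sensor Ifih1 (0.52 ± 0.09, adjusted p = 0.0178) and the oligoadenylate synthetase gene Oas1a (0.48 ± 0.08, adjusted p = 0.0188), which has close paralogs that its probe may also read, rose too. The list mean was 7.37, 7.31, 7.73, 7.63 and 7.40 in SAMP8, against 7.15, 7.05, 7.17, 7.24 and 7.06 in SAMR1, without overlap and with replicates 3 and 4 highest in each line. When single pairs were left out the calls ended for Ifit1 (without pair 1, 3, 4 or 5, up to 0.141), Isg15 (without any 1 pair, up to 0.106), Usp18 (without pair 1 or 4, up to 0.0686), Ifih1 (without pair 1, 2, 3 or 5, up to 0.0773) and Oas1a (without pair 1, 2, 3 or 5, up to 0.0754). Unpaired, the call ended for Ifit1 (0.142), Isg15 (0.162) and Usp18 (0.0764), and with all probes of a gene averaged for Ifih1 (0.27, adjusted p = 0.229).

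Other immune genes moved in both directions. Of 25 genes of antigen presentation by the major histocompatibility complex (MHC) 3 fell and none rose (12%, against 3.95% of all genes): H2-Q4, a class Ib heavy chain, and H2-DMb1 and H2-DMb2, the chains that help load peptides onto class II. H2-Q4 measured 9.71, 9.95, 9.96, 9.49 and 9.74 in SAMP8, against 10.73, 10.66, 10.91, 10.49 and 10.48 in SAMR1 (1.85-fold, -0.88 ± 0.07, adjusted p = 0.000765), H2-DMb1 differed by -0.79 ± 0.12, adjusted p = 0.0103 and H2-DMb2 by -0.69 ± 0.12, adjusted p = 0.0221. MHC genes vary in sequence between mouse lines and have near-identical copies, so a probe may read them unequally, which was not tested. Of 17 complement genes (11.8% called), C4b, the fourth component, fell (-0.81 ± 0.11, adjusted p = 0.00588) and the C1 inhibitor gene Serping1 rose (0.69 ± 0.13, adjusted p = 0.0277). Among 46 chemokines and their receptors (13% called), Ccl27a rose beside Ccl19 (1.30 ± 0.06, adjusted p = 3.87e-05), Ccl12 rose (0.46 ± 0.07, adjusted p = 0.0135), and Ccl17 (-0.98 ± 0.06, adjusted p = 0.000184), Ccl6 (-0.63 ± 0.12, adjusted p = 0.0273) and Ccl9 (-0.60 ± 0.11, adjusted p = 0.0264) fell. Of 73 cytokines and receptors 1, the alarmin Il33, passed (-0.36 ± 0.06, adjusted p = 0.0196), which is 1.37% against 3.95% of all genes. Calls ended without single pairs for H2-DMb1 (without pair 1, adjusted p = 0.0599), H2-DMb2 (without pair 1, 3 or 4, up to 0.0922), Serping1 (without pair 1, 2, 3 or 5, up to 0.107), Ccl12 (without pair 2, 3 or 5, up to 0.0633), Ccl6 (without pair 1, 3, 4 or 5, up to 0.0989), Ccl9 (without pair 1, 3, 4 or 5, up to 0.103) and Il33 (without any 1 pair, up to 0.0739). In an unpaired fit the call ended for Serping1 (0.227), Ccl12 (0.3) and Il33 (0.206).

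In the synaptic lists 3.77% to 8.33% of the genes were called, against 3.95% of all genes. Glutamate receptors, which carry fast excitation, had 1 of 23 lower, the N-methyl-D-aspartate receptor subunit Grin2a (-0.46 ± 0.09, adjusted p = 0.0327). Of 24 postsynaptic scaffold genes, Lrrtm1 (-0.44 ± 0.08, adjusted p = 0.0227) and Homer2 (-0.36 ± 0.07, adjusted p = 0.0377) fell, and none was called without pair 5. Of 15 genes of inhibitory transmission, Gabra5, the receptor subunit of tonic inhibition in the hippocampus, measured 11.82, 11.67, 11.61, 11.12 and 11.60 in SAMP8, against 12.07, 12.13, 12.18, 11.85 and 12.33 in SAMR1, lower in each pair and without overlap (1.47-fold, -0.55 ± 0.09, adjusted p = 0.0136). On the release side 53 genes were measured, and Mal2, a membrane protein of vesicle transport, had the widest difference, with 13.86, 14.01, 13.73, 14.08 and 14.18 in SAMP8 and 12.60, 12.46, 12.31, 12.62 and 12.31 in SAMR1 (2.85-fold, 1.51 ± 0.09, adjusted p = 0.000149). The vesicle protein Syn2 rose by 0.44 ± 0.08, adjusted p = 0.0268, and the median of the list was 0.07. Removing a single pair ended the calls of Grin2a (without pair 1, 2, 4 or 5, up to 0.116), Lrrtm1 (without pair 1, 3, 4 or 5, up to 0.0848), Homer2 (without any 1 pair, up to 0.134), Gabra5 (without pair 3, 4 or 5, up to 0.0629) and Syn2 (without pair 1, 3, 4 or 5, up to 0.0997). With the number dropped, the call ended for Grin2a (0.0811), Lrrtm1 (0.144) and Gabra5 (0.0501), and with all probes of a gene averaged for Homer2 (-0.28, adjusted p = 0.0619).

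In the lists of ion channels and modulatory receptors it was 3.33% to 6.17%. Of 81 potassium channel genes 3 rose and 2 fell (6.17%), among them the modifier subunit Kcng2 (0.52 ± 0.09, adjusted p = 0.0168), which was higher, and the calcium-activated channel Kcnn2 (-0.49 ± 0.08, adjusted p = 0.0147), which was lower, and without pair 5 none rose and 1 fell. Of 30 sodium and calcium channel genes, the T-type calcium channel Cacna1g rose (0.77 ± 0.14, adjusted p = 0.0242). Of 54 receptors for acetylcholine, monoamines and neuropeptides, the nicotinic subunit Chrna4 (0.75 ± 0.09, adjusted p = 0.00376) and the somatostatin receptor Sstr2 (0.36 ± 0.08, adjusted p = 0.048) rose. Dropping 1 pair ended the calls of Kcng2 (without pair 1, 2, 3 or 5, up to 0.0741), Kcnn2 (without pair 1, 2 or 3, up to 0.0664), Cacna1g (without pair 1, 2, 4 or 5, up to 0.0953) and Sstr2 (without any 1 pair, up to 0.142). If the pairs were ignored, the call ended for Kcnn2 (0.0546) and Sstr2 (0.0949), and with all probes of a gene averaged for Chrna4 (-0.10, adjusted p = 0.464). The probes of Chrna4 thus point in opposite directions.

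Among signalling families the protein phosphatase 1 regulators held some of the widest differences. Of 40 catalytic and regulatory subunits 1 rose and 3 fell (10%, against 3.95% of all genes), a share that can follow in part from choosing the list with earlier results known. Of the 40, 28 had a difference below 0 (median -0.12), against 49.1% of all genes. With the surface tissue covariates the median was -0.01 and 19 of the 40 lay above 0. Beside inhibitor 1, the glycogen-targeting subunits moved in opposite directions: Ppp1r3d measured 9.62, 9.41, 9.15, 9.70 and 9.16 in SAMP8, against 8.66, 8.52, 8.498, 8.45 and 8.28 in SAMR1 (1.89-fold, 0.92 ± 0.09, adjusted p = 0.00152), and Ppp1r3g measured 9.40, 9.85, 9.32, 9.86 and 9.52 in SAMP8, against 10.94, 10.87, 10.41, 10.98 and 10.49 in SAMR1 (2.22-fold, -1.15 ± 0.09, adjusted p = 0.000607). Neither gene had overlapping groups. Of 12 calmodulin kinase genes, the Camk2 inhibitor Camk2n2 rose (0.33 ± 0.07, adjusted p = 0.0448). Of 28 genes of insulin, mTOR and FoxO signalling, Eif4ebp1, the translation repressor that mTOR switches off, fell (-0.78 ± 0.09, adjusted p = 0.00315). Of 43 Wnt pathway genes, the receptor Fzd1 (0.50 ± 0.09, adjusted p = 0.0273) and Lef1 rose and the ligand Wnt2 fell (-0.51 ± 0.09, adjusted p = 0.0219), and none of the 43 was called without the replicate number or without pair 5. The share called was 8.33% of the calmodulin kinase, 3.57% of the insulin, mTOR and FoxO and 6.98% of the Wnt genes, against 3.95% of all genes. The calls ended on leaving out pairs for Camk2n2 (without any 1 pair, up to 0.143), Fzd1 (without pair 1, 2, 3 or 5, up to 0.0904) and Wnt2 (without pair 1, 3 or 5, up to 0.0901). With no pairing the call ended for Camk2n2 (0.149), Fzd1 (0.114) and Wnt2 (0.256), and with all probes of a gene averaged for Eif4ebp1 (-0.39, adjusted p = 0.105).

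Activity-regulated immediate early genes were mostly above 0 in difference, 22 of 26 with a median of 0.28, while 49.1% of all genes lay below 0. The list averaged 10.69, 10.965, 10.57, 10.78 and 11.10 in SAMP8 replicates 1 to 5, against 10.93, 10.956, 10.06, 10.19 and 10.54 in SAMR1 replicates 1 to 5. SAMP8 was lower in pair 1, nearly equal in pair 2 and higher in pairs 3 to 5, and the lines overlapped. Only Jun passed (0.45 ± 0.08, adjusted p = 0.0243), which is 3.85% of the list against 3.95% of all genes. Leaving out any 1 pair ended the call of Jun, with an adjusted p up to 0.0932. With the surface tissue covariates the median of the list was 0.80, and no member was called. No gene passed among 10 neurotrophins and their receptors (limma, 1 at an unadjusted p under 0.05), 12 glucocorticoid response genes (4) or 21 circadian clock genes (3), and none without the replicate number.

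The medians of 3 mitochondrial lists were slightly below 0 and that of the fourth, 20 genes of mitochondrial biogenesis, was 0.01, with none of these called (limma, 0 at an unadjusted p under 0.05). Of 83 nuclear-encoded subunits of the respiratory chain, which makes most of a neuron's ATP, 3 fell and none rose (3.61%, against 3.95% of all genes), and 63 of the 83 had a difference below 0, against 49.1% of all genes, with a median of only -0.05. The complex I subunits Ndufa11 (-0.77 ± 0.11, adjusted p = 0.00792) and Ndufa12 (-0.49 ± 0.09, adjusted p = 0.0227) and the cytochrome oxidase subunit Cox6c (-0.44 ± 0.07, adjusted p = 0.0149) were those called. Of 78 mitochondrial ribosomal proteins, Mrpl41 measured 11.37, 11.61, 11.52, 11.72 and 11.41 in SAMP8, against 12.75, 12.85, 12.99, 12.89 and 12.69 in SAMR1 (2.47-fold, -1.31 ± 0.07, adjusted p = 8.12e-05), Mrpl14 rose (0.55 ± 0.08, adjusted p = 0.00959), and 60 of the 78 lay below 0 (median -0.06). The means of both lists were lower in SAMP8 in pairs 1 to 4 and higher in pair 5. Of 10 genes of mitochondrial calcium uptake (10% called, median -0.11), Mcur1, a regulator of the uniporter, measured 9.73, 9.46, 8.58, 9.36 and 9.42 in SAMP8, against 10.98, 10.71, 10.69, 10.58 and 10.87 in SAMR1 (2.74-fold, -1.46 ± 0.13, adjusted p = 0.00114). The lines did not overlap in Mrpl41 or Mcur1. Without single pairs the calls ended for Ndufa12 (without pair 1, 2, 3 or 4, up to 0.094) and Cox6c (without pair 1, 3 or 4, up to 0.0687). In the absence of pairing the call ended for Cox6c (0.0803), and with all probes of a gene averaged for Ndufa12 (-0.13, adjusted p = 0.451).

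Among enzymes and transporters of metabolism, single genes had wide differences. Slc2a5, a transporter of fructose that microglia express in the brain, measured 9.82, 9.64, 9.63, 9.60 and 9.71 in SAMP8, against 8.22, 7.45, 7.29, 7.07 and 7.71 in SAMR1, and was the 1 of 20 hexose transporters to pass (4.38-fold, 2.13 ± 0.13, adjusted p = 0.000138). In the breakdown of branched-chain amino acids 2 of 20 genes fell (10%, against 3.95% of all genes). Of the 20, 14 had a difference below 0 (median -0.09), against 49.1% of all genes, with the list mean lower in SAMP8 in every pair. Auh, a leucine pathway hydratase that also binds RNA, measured 12.03, 12.12, 12.26, 12.17 and 11.91 in SAMP8, against 13.40, 13.60, 13.66, 13.62 and 13.25 in SAMR1 (2.65-fold, -1.41 ± 0.06, adjusted p = 3.2e-05), and Bckdhb, a subunit of the branched-chain ketoacid dehydrogenase, fell too (-0.62 ± 0.07, adjusted p = 0.00233). With all probes averaged the difference was -0.69 for Auh. The ectonucleotide enzymes, which act on extracellular nucleotides, had 2 of 13 lower, Enpp5 (-1.91 ± 0.12, adjusted p = 0.000184) and the ATP-degrading Entpd2 (-1.05 ± 0.08, adjusted p = 0.000363). Dhcr7, the last enzyme of cholesterol synthesis, fell (-0.48 ± 0.07, adjusted p = 0.00676, 1 of 19) and Gstm2, a glutathione transferase, rose (0.91 ± 0.11, adjusted p = 0.00459, 1 of 48 antioxidant genes). The calls of these 7 genes held without any 1 pair and without the replicate number. The share called was 5% of the hexose transporter, 15.4% of the ectonucleotide, 5.26% of the cholesterol synthesis and 2.08% of the antioxidant genes, against 3.95% of all genes.

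Enzymes that modify RNA included several of the genes that rose most. Of 53 genes measured in this list, 5 rose and 1 fell (11.3%, against 3.95% of all genes), while the median of the list was -0.0095. The list was chosen with earlier results of these data known, so its share can follow in part from that choice. Fbll1, a fibrillarin-like methyltransferase, measured 13.83, 13.99, 14.00, 14.00 and 13.95 in SAMP8, against 12.28, 12.17, 12.25, 12.22 and 12.32 in SAMR1 (3.26-fold, 1.71 ± 0.07, adjusted p = 2.16e-05). Rpusd4, a pseudouridine synthase of mitochondrial RNA, measured 9.87, 9.77, 9.76, 9.63 and 9.69 in SAMP8, against 8.28, 7.997, 7.98, 7.78 and 7.72 in SAMR1 (3.46-fold, 1.79 ± 0.07, adjusted p = 2.16e-05). The spread within a line was small beside the difference in both genes. Dph7, counted in the list, takes part in making diphthamide on a protein, a translation elongation factor, and not on RNA. Dph7 rose by 0.72 ± 0.06, adjusted p = 0.000995, and the mitochondrial methyltransferase Trmt61b fell (-0.75 ± 0.09, adjusted p = 0.00339). None of 70 cytosolic ribosomal protein genes passed (limma, 8 at an unadjusted p under 0.05, none without the replicate number).

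The lists of protein quality control held a few genes that differed, from 1.49% of the chaperones to 8.06% of the deubiquitinating enzymes, against 3.95% of all genes. Vcp, an ATPase that pulls proteins from membranes for degradation, measured 13.98, 14.05, 14.20, 13.98 and 13.96 in SAMP8, against 13.28, 13.55, 13.34, 13.35 and 13.26 in SAMR1 (1.6-fold, 0.68 ± 0.07, adjusted p = 0.00222). With all probes averaged the difference was 0.41 for Vcp. With the lysosomal sialidase Neu1 (0.63 ± 0.06, adjusted p = 0.00179) Vcp made up the 2 of 54 autophagy and lysosome genes that rose (3.7%). Of 67 chaperones 1 rose, the DnaJ protein Dnajb14 (1.08 ± 0.15, adjusted p = 0.00738), and of 25 genes of the endoplasmic reticulum stress response 1 fell, the kinase gene Eif2ak3, known as PERK (-0.59 ± 0.09, adjusted p = 0.00908). Of 62 deubiquitinating enzymes, Uchl3 (-1.16 ± 0.07, adjusted p = 0.000128) and Uchl4 (-1.20 ± 0.12, adjusted p = 0.00148), which are near-identical copies that a probe may not separate, fell, and Usp21 rose (0.56 ± 0.08, adjusted p = 0.00639). None of 24 genes of amyloid processing and tau passed (limma, 3 at an unadjusted p under 0.05, none without the replicate number). With all probes of a gene averaged the call ended for Neu1 (0.22, adjusted p = 0.0998) and Eif2ak3 (-0.01, adjusted p = 0.958).

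Lists tied to cellular ageing and chromatin held 1 or 2 called genes each, 2.56% of the DNA repair, 2.86% of the chromatin and 5.88% of the senescence genes, against 3.95% of all genes. Of 17 genes of senescence and cell cycle arrest, the kinase inhibitor Cdkn2d measured 11.81, 11.77, 11.93, 11.97 and 12.08 in SAMP8, against 11.50, 11.12, 11.24, 11.18 and 11.18 in SAMR1 (1.59-fold, 0.67 ± 0.09, adjusted p = 0.00729). Of 39 DNA repair genes, the Fanconi anaemia gene Fancg fell (2.38-fold, -1.25 ± 0.09, adjusted p = 0.000458, and -0.61 with all probes averaged), and of 70 chromatin modifiers the methyltransferase Setd6 rose (0.44 ± 0.07, adjusted p = 0.0114) and the acetyltransferase Kat6a fell (-0.69 ± 0.09, adjusted p = 0.00727). Leaving out 1 pair ended the call of Setd6 (without pair 3, adjusted p = 0.054). With all probes of a gene averaged the call ended for Kat6a (-0.27, adjusted p = 0.0902).

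Zinc finger genes of the Zfp series, many of which encode repressors of transposable elements, were the largest family examined. Of 314 measured, 8 rose and 11 fell (6.05%, against 3.95% of all genes), and without pair 5 it was 3 and 5. Zfp606 measured 9.44, 9.24, 8.94, 9.46 and 8.94 in SAMP8, against 7.25, 6.82, 6.96, 7.07 and 6.83 in SAMR1 (4.66-fold, 2.22 ± 0.08, adjusted p = 1.63e-05). Zfp667 (1.73 ± 0.17, adjusted p = 0.00158) and Zfp429 (1.62 ± 0.09, adjusted p = 0.000105) also rose, and Zfp599 (-1.07 ± 0.06, adjusted p = 0.000126) and Zfp324 (-1.04 ± 0.09, adjusted p = 0.00101) fell with Zfp551. With all probes averaged the difference was 1.10 for Zfp606, 0.97 for Zfp667, -0.67 for Zfp599 and -0.42 for Zfp324. The calls of these 6 held without any 1 pair and without the replicate number. Many zinc finger genes have close paralogs, and whether their probes also read these was not tested.

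Matrix and adhesion genes differed in both directions. Of 40 collagen genes 7 rose and 1 fell (20%, against 3.95% of all genes, median 0.19), and without the replicate number 2 rose and none fell. Besides the fibrillar chains, Col9a2 rose (0.70 ± 0.10, adjusted p = 0.00867) and Col11a2 fell (-0.78 ± 0.11, adjusted p = 0.00844). With all probes averaged the difference was -0.47 for Col11a2. Ccn2, a matrix-associated growth factor, measured 9.97, 10.17, 9.90, 10.01 and 9.77 in SAMP8, against 8.07, 8.498, 8.96, 8.89 and 8.83 in SAMR1, without overlap (2.49-fold, 1.32 ± 0.15, adjusted p = 0.00339). Thbs4, a thrombospondin, measured 8.22, 9.04, 7.93, 9.07 and 7.65 in SAMP8, against 9.92, 9.64, 9.36, 9.70 and 9.73 in SAMR1 (2.44-fold, -1.29 ± 0.22, adjusted p = 0.0189). Of 61 cadherins and protocadherins 1 rose and 3 fell (6.56%), among them Pcdh9 (-1.45 ± 0.17, adjusted p = 0.00366) and Cdh6 (-0.59 ± 0.09, adjusted p = 0.0146), which had 1 SAMP8 array at the lower limit. Dropping 1 pair ended the calls of Thbs4 (without pair 1, 3 or 5, up to 0.0914) and Cdh6 (without pair 2 or 5, up to 0.0647). Ignoring the pairs, the call ended for Col9a2 (0.119) and Col11a2 (0.0729), and with all probes of a gene averaged for Pcdh9 (-0.03, adjusted p = 0.888). Of 51 motor and dynactin genes Dctn3, a dynactin subunit, was the widest, with 15.25, 15.05, 14.999, 15.44 and 15.12 in SAMP8 and 13.91, 13.66, 13.73, 13.87 and 13.68 in SAMR1 (2.64-fold, 1.40 ± 0.07, adjusted p = 5.6e-05).

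The called genes were unevenly spread over the chromosomes. By the RefSeq gene table of GRCm38.p6, 7.22% of the 790 tested genes on chromosome 17 and 7.21% of the 860 on chromosome 6 were called, 5.93% on chromosome 13, 5.75% on chromosome 18, 2.22% on chromosome 8 and 1.31% of the 533 on the X chromosome. On chromosome 17, where the MHC lies, 28 genes were higher and 29 lower, and on chromosome 6 it was 31 each way. Of the 644 called genes with a position, 159 (24.7%) had a called gene as the next tested gene on either side, against 6.82% of the genes not called. Immediate neighbours that were all called formed 74 runs, 9 of them of 3 or 4 genes. Genes described above under separate families shared such runs. On chromosome 4 these were Ccl27a, Gm3893 and Ccl19, then Vcp and Fancg, and Rpp25l and Dctn3. Others were Dph7 and Mrpl41, and Uap1l1 and Entpd2, on chromosome 2, and Zfp551 and Zfp606 on chromosome 7. Whether neighbours differed for a shared reason was not tested.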

How the data were processed

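Total RNA of 15 whole hippocampus samples was labelled with Cy3 and hybridised to 1-colour arrays, per the labels' protocols. The deposited values are linear intensity values from 4.02 to 65480, 1 column per array, whose sorted values are nearly identical between arrays (median CV of equal ranks 0.111%), as quantile normalization leaves them. The submitters' processing notes name limma without a step, while scanner and background correction are not stated there. Of 45220 rows, 10741 (23.8%) had no value. Features were named through the platform annotation: 27968 had 1 gene symbol and 6511 had none or several and were tested apart.

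Deposited intensities under the 5th percentile, 39.17, were raised to it, and log2 was taken. Each of 16401 genes was represented by the probe with the highest mean over the 15 arrays. The 10 sedentary arrays were fitted with limma 3.58.1 in R 4.3.3 (lmFit, eBayes, two-sided), with group and replicate number as terms (4 residual and 3.72 prior degrees of freedom), and p-values were adjusted by Benjamini-Hochberg over all genes. The number of arrays, 5 per line, limits the precision.

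The replicate numbers come from the titles. They were taken to pair the arrays because deviations from the group means correlated in each of the 5 pairs (r = 0.27, 0.23, 0.38, 0.52 and 0.42), which was checked before the fits were compared.

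Named genes were drawn from the 15 with the largest difference each way among called genes above the median level, with all pairs in 1 direction and no overlap of the lines, the 8 largest at any level, the 8 with the lowest p called with the replicate number alone, and members of the 65 gene lists that were called or among the 3 next lowest p. Predicted genes were passed over, except among the 8 largest. Not every gene that met these rules is named, and many called list members are left out. Counts among the 132 called genes named therefore refer to those genes only. The comparison, lists and tests were chosen with earlier results of these data known, and lists are described by counts and medians with no test. The share of a list that was called can therefore follow in part from how the list was chosen. Alternatives were other blocks, floors, probe rules, scalings and variance models, and leaving out each pair.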

Additional observations from a re-analysis of the deposited data

Results flagged for a closer look

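In 282 sets of 5 arrays, 1 for each line and each named gene or list mean plotted, 11 values lay apart from the other 4 by more than 0.71 of the range, Dixon's limit. Chance flags about 1 set in 20. The striatal gene mean of SAMR1 replicate 5 was 9.76, with the other SAMR1 arrays from 7.95 to 8.12, and this array also held the lowest SAMR1 value of Eif2ak2 (6.13, others 6.54 to 6.58) and the highest of Plekha5 (12.06, others 11.45 to 11.58). Abcb1a was above the lower limit on SAMR1 replicate 4 alone (5.53, others 5.29), and Homer2 was lowest there (11.61, others 11.68 to 11.69). Usp18 was at the limit on SAMR1 replicate 1 (5.29, others 6.02 to 6.17), and Eif4ebp1 was lowest on SAMR1 replicate 2 (8.39, others 8.70 to 8.77). Among SAMP8 arrays, replicate 3 was lowest for Dnajb14 (7.08, others 8.001 to 8.24) and highest for Gjb2 (9.86, others 9.03 to 9.19). Cdh6 was at the limit on SAMP8 replicate 4 (5.29, others 5.87 to 5.94), and Rpp25l was lowest on SAMP8 replicate 1 (12.52, others 12.75 to 12.84).

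Outside the named genes, 91 of 6511 array features without a single gene symbol (1.4%) also differed between the lines in the same fit, 54 higher and 37 lower in SAMP8.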

How the results depend on the processing

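With the replicate block, which follows the pairing of the arrays, 648 genes were called, and without the replicate block 437 (240 higher, 197 lower). Without the block and with all 15 arrays it was 431, 240 of them higher, and a floor at the 20th percentile called 233 higher. Leaving out 1 pair called 344 to 443 genes, 194 to 257 higher and 146 to 189 lower, in a fit with 1 residual degree of freedom less. The remaining alternatives called 460 (block over 15 arrays) to 937 genes (variance trend and robust prior). Of the 132 called genes named, 86 kept their calls without any 1 pair. With the surface tissue covariates, chosen after the data were seen, 93 genes were called, 39 higher and 54 lower. That fit had a median standard error of 0.178, against 0.0847 in the paired fit. There the sign turned for Aldh1a2 (-0.15), Ccl12 (-0.21), Gjb2 (-0.34), Ifit1 (-0.056), Mgp (-0.094), Myh11 (-0.013), Serping1 (-0.13), Slc22a6 (-0.44), Slc47a1 (-0.29), Slc6a20a (-0.16), Thbd (-0.088) and Vwf (-0.014), and Chrna4 turned with all probes averaged (-0.10). Aldh1a2, Mgp and Slc22a6 are members of the meningeal list whose mean was a covariate, so their change of sign is partly built in. The cause of these changes was not tested. The medians of the meningeal (0.70 to 0.81), interferon-stimulated (0.24 to 0.36), choroid plexus (-0.77 to -0.49) and respiratory chain lists (-0.09 to -0.03) ran over these ranges in the 17 fits without covariates, several of which change only the standard error. With the higher floor 48 of the 132 lost their calls, 42 of them with a difference that moved by less than 0.01, and the cause was not tested. Signals at the lower limit leave only bounds, as in Lefty1 and Abcb1a.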
